A study of Mus musculus with 12 samples.

Results

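Glomerular mRNA from nondiabetic mice given arctigenin (ATG) was compared with that from nondiabetic mice given vehicle. The comparison uses 6 of the 12 mice of the study, 3 with ATG and 3 with vehicle, chosen by the condition in their labels, and covers all 14096 genes that the deposited tables list. All 12 mice were male eNOS-/- mice on a C57BL/6J background, so treated and control mice alike lacked a functional endothelial nitric oxide synthase. The nondiabetic mice were injected with citrate buffer at 8 weeks of age. From 10 weeks later they were gavaged daily for 8 weeks, either with ATG at 40 mg/kg in 5% DMSO or with 5% DMSO alone. The remaining 6 mice were made diabetic with streptozotocin and then had the same 2 treatments, and they are used here to share the estimates of spread and of the covariate's slope, to class genes by their relation to tubule markers, and to compare the ATG effects. The paper refers to an earlier report for how the glomeruli were isolated. The labels add a digestion to single cells and a fluorescence sort, a step absent from the published methods, and which of the 2 materials was sequenced is not resolved by these sources. Glomerular is used here as the study uses it. The leading digits of the labels are shared by 1 mouse of each nondiabetic group and, with other digits, by the remaining 2 of each, and the labels do not say what they stand for. The 6 diabetic mice share digits that no nondiabetic mouse has, so these digits and diabetes cannot be told apart.

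The glomerulus is the filter of the kidney, a tuft of capillaries built from 3 main cell types. Fenestrated endothelial cells line the capillaries, podocytes wrap them from the outside, and contractile mesangial cells hold the loops together from within. Podocytes and endothelium share a basement membrane of type IV collagen and laminin, while mesangial cells sit in a matrix of their own. Around the glomeruli lie the tubules: the proximal tubule, which reabsorbs most of the filtrate and burns fatty acids, then the thick ascending limb, the distal convoluted and connecting tubule and the collecting duct. Glomerular preparations carry fragments of these tubules in varying amounts. ATG is a lignan from burdock that the study examines as a drug for diabetic kidney disease.

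Reads on the listed genes numbered 27.33, 27.55 and 27.66 M (mega) in the 3 vehicle-treated mice and 23.64, 25.73 and 26.97 M in the 3 ATG-treated mice. Values are log2 of reads per gene times 1 factor per library and are not divided by gene length, so each gene is compared only with itself. The defining genes of glomerular cells were present in every library. Nphs1, which encodes the slit diaphragm protein nephrin, had between 20160 and 57530 reads, and Pecam1, an endothelial adhesion molecule, between 6158 and 16450. Tubule genes were present as well, with 113500 to 225300 reads on Umod, the uromodulin gene of the thick ascending limb. Nos3, the disrupted gene, still had 846 to 2275 reads. The 3 vehicle-treated mice were alike, with Pearson's r across genes, which are not independent replicates, of 0.991 to 0.994, while the 3 ATG-treated mice had r of 0.973 to 0.986.

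With ATG, the glomerular marker genes stood lower and the tubule marker genes higher. The mean log2 value of 35 podocyte genes was 13.52, 13.65 and 13.63 with vehicle and 12.52, 12.93 and 13.58 with ATG. ATG-treated mouse 3 lay among the vehicle-treated mice, and the other two lay below them. For 30 endothelial genes the mean was 12.53, 12.49 and 12.63 with vehicle and 11.55, 11.94 and 12.30 with ATG, and the groups did not overlap. For 20 mesangial and contractile genes it was 11.57, 11.12 and 11.51 with vehicle and 10.32, 10.68 and 10.61 with ATG, again without overlap. In bulk samples, fewer cells of a type and less RNA per cell cannot be told apart.

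The tubule lists showed where the ATG-treated mice differed among themselves. The mean of 42 proximal tubule genes was 12.05, 11.78 and 11.19 with vehicle and 12.27, 12.88 and 12.24 with ATG, highest in ATG-treated mouse 2. For 10 distal convoluted and connecting tubule genes it was 13.75, 13.83 and 13.90 with vehicle and 14.97, 14.38 and 13.93 with ATG, highest in ATG-treated mouse 1. Thick ascending limb genes were at 11.92 to 12.10 with vehicle and at 12.80, 12.31 and 11.92 with ATG, and collecting duct genes at 10.56 to 10.74 and at 11.34, 11.24 and 10.63, so both lists overlapped through mouse 3. Over all 78 tubule genes the mean was 12.01, 11.83 and 11.56 with vehicle and 12.51, 12.68 and 12.10 with ATG. These genes took 2.75% to 3.33% of the signal with vehicle and 5.78%, 5.23% and 3.71% with ATG. The 85 genes of the 3 glomerular lists took 4.53% to 4.94% with vehicle and 2.16%, 2.98% and 4.61% with ATG. ATG-treated mouse 1 thus held the least glomerular and the most distal tubule signal, and ATG-treated mouse 3 was nearest to the vehicle-treated mice.

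**Figure D1:**
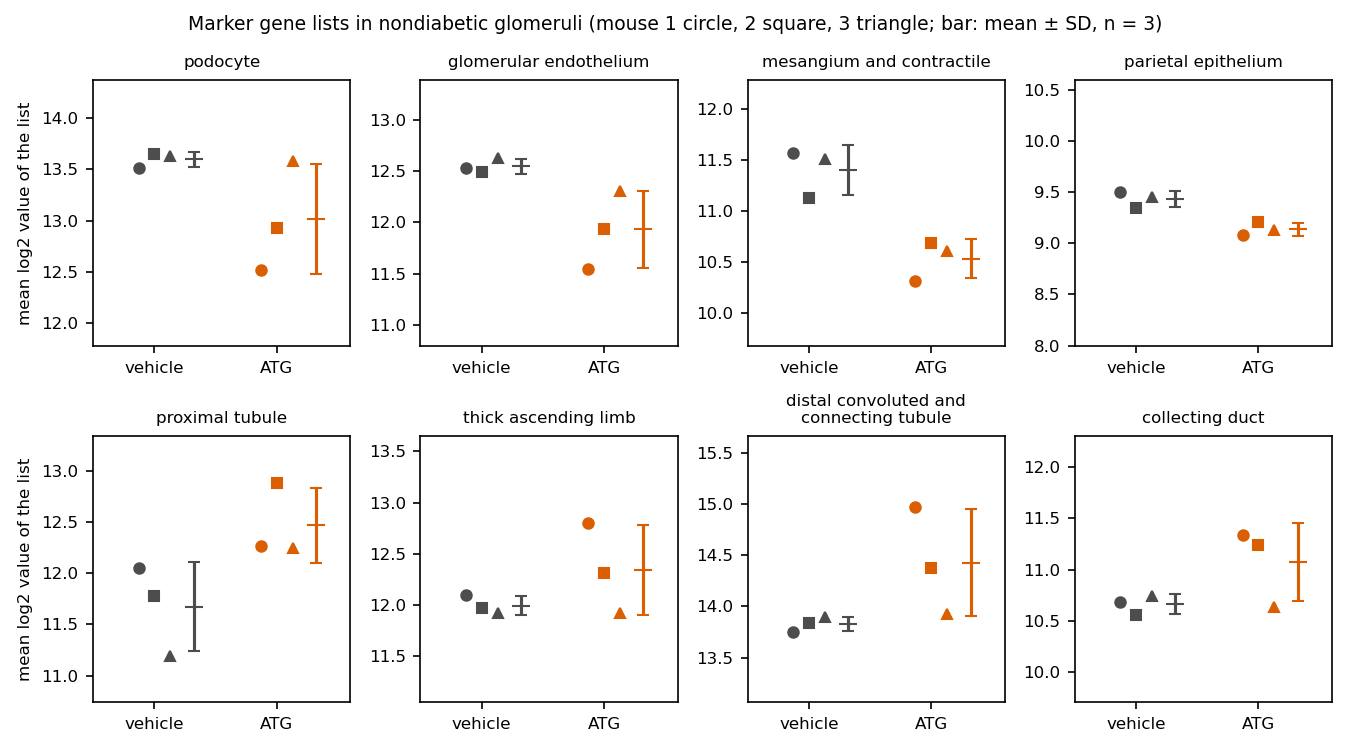
Mean log2 value of each marker list (y axis, the same height in log2 units in every panel) in the 3 vehicle-treated and 3 ATG-treated nondiabetic mice (x axis), with a symbol per mouse and the mean ± SD beside them. Mesangial and contractile genes were lower in all 3 ATG-treated mice, while the podocyte mean ran from 12.52 in ATG-treated mouse 1 to 13.58 in ATG-treated mouse 3.

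Of the 14096 genes, 100 were called higher with ATG and 636 lower, at an adjusted p under 0.05 in limma (Benjamini-Hochberg over all listed genes). These are 0.709% and 4.51% of the genes tested. The called lower genes stood at 27.2% to 86.3% of their vehicle level, with a median of 64.6%, and the called higher genes at 116.9% to 272% with a median of 134.4%. At a log2 fold change of 1 or more in size there were 43 lower and 3 higher genes. All 100 higher genes and 635 of the 636 lower genes had no overlap between the 3 mice of each group, where 14.4% of all listed genes lay higher and 20.0% lower without overlap. The tubule marker lists held none of the called genes, and the 3 glomerular lists held 30 of the lower ones.

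The count depended on single mice. Without vehicle-treated mouse 1, 2 or 3 it was 127, 382 or 60, and without ATG-treated mouse 1 or 2 it was 212 or 201. Without ATG-treated mouse 3, whose podocyte genes were at the vehicle level, it rose to 3531, of which 1064 were higher and 2467 lower, and they included all 736 of the full set. With only the 6 nondiabetic mice in the fit, no gene passed in limma, although 3968 had an unadjusted p under 0.05, and limma-voom on the recovered reads of all 12 mice called 735. The mouse of each treatment with leading digits of its own also carries no number at the end of its label. Without both of these mice, among the 4 that share leading digits, 8 genes passed, all of them lower.

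Those calls are relative to the total signal of a library, and the split between higher and lower depended on that choice. When each library was instead scaled so that the 3 glomerular lists had the same mean in all mice, the median of all genes moved to 0.62, and 10118 genes were called higher and 14 lower. Scaled on the podocyte list alone, a choice made after the data had been seen, no gene passed (lowest adjusted p = 0.123 in limma). On that scale 5530 genes had an unadjusted p under 0.05 in limma, 5514 of them higher and 16 lower. The glomerular scaling adds the same 0.66 to every log2 fold change and the podocyte scaling 0.59, so which genes lie above 0 follows from their value as deposited and is no further test. Of the 636 lower genes, 346 lay above 0 on the glomerular scale and 267 on the podocyte scale.

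**Figure D2:**
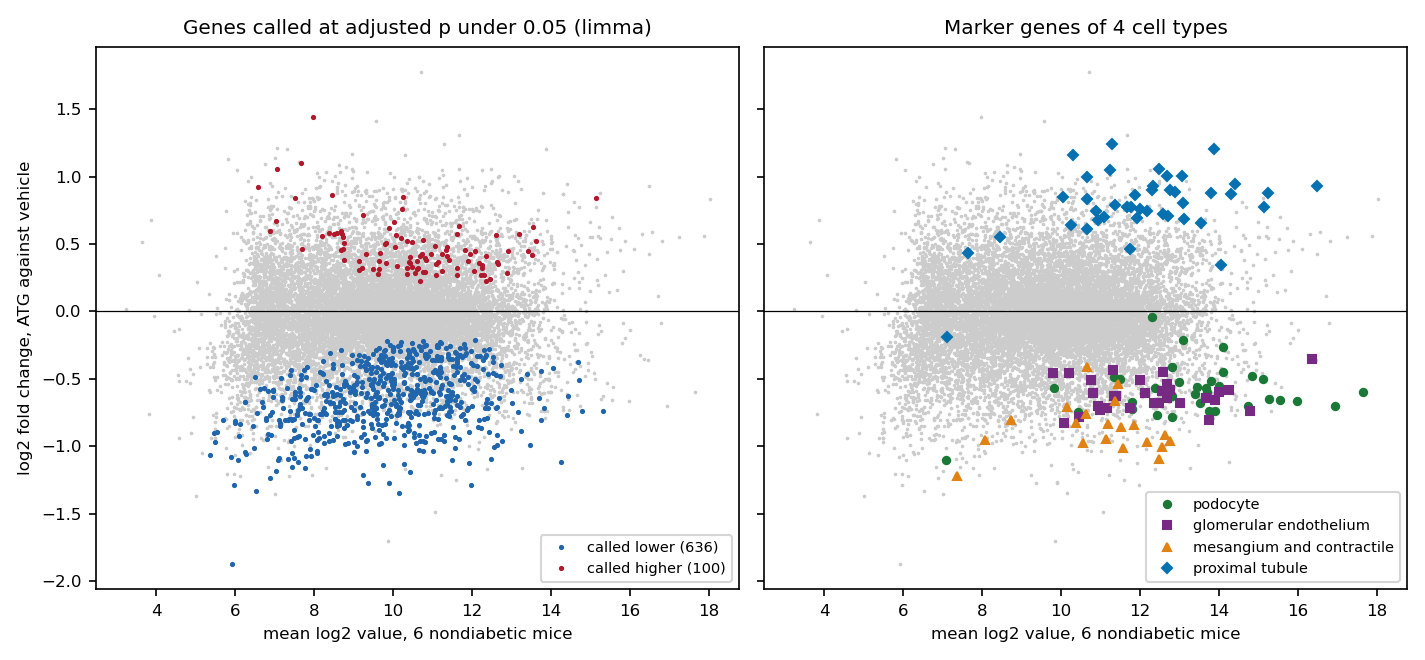
Log2 fold change with ATG in nondiabetic mice (y axis) against the mean log2 value over the 6 mice (x axis), 1 point per gene, with the genes called in limma coloured on the left and the marker genes of 4 cell types on the right. Podocyte, endothelial and mesangial genes lie below 0 and proximal tubule genes above 0, apart from 1 proximal tubule gene at −0.19.

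The 10 called lower genes of lowest p, among those without overlap between the groups, are given first. Scarf2, a scavenger receptor gene (GRCm38 chromosome 16, 17797282 to 17808293), had log2 values of 10.88, 10.65 and 10.69 with vehicle and 9.73, 9.83 and 9.92 with ATG. It fell by 0.92 on the log2 scale (standard error 0.07, adjusted p = 0.00112 in limma). Lrp1, an endocytic receptor of the LDL receptor family (chromosome 10, 127538158 to 127621148), was at 12.19, 11.94 and 12.01 with vehicle and at 10.76, 11.12 and 10.95 with ATG, a log2 fold change of −1.10. C1s1, which encodes the complement protease C1s, was at 10.92, 10.70 and 10.91 with vehicle and at 9.89, 10.10 and 9.91 with ATG. All 3 genes were low in each ATG-treated mouse, including mouse 3, which the rule that chose them required. Cd248, the gene of the pericyte and fibroblast surface protein endosialin, was at 10.92, 10.68 and 10.70 and at 9.60, 9.98 and 9.74. The other 6 were the guanine nucleotide exchange factor genes Arhgef25 (−0.96) and Dock10 (−0.88), the vinculin gene Vcl (−0.79), the matrix metalloprotease gene Adamts10 (−0.69), the biglycan gene Bgn (−0.99) and Col6a3 of type VI collagen (−0.86). Each of the 10 was called in all 6 fits that left out 1 of the nondiabetic mice, as were 22 of the 63 called genes that the naming rule chose.

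Without the 2 mice whose labels carry no number, 8 genes passed: Scarf2, Lrp1, C1s1, Cd248, Arhgef25, Vcl, Bgn and Nid1, with log2 fold changes from −0.94 for Lrp1 to −0.68 for Nid1. Nid1 encodes the basement membrane linker nidogen 1 and stood at 12.47, 12.36 and 12.30 with vehicle and at 11.15, 11.55 and 11.74 with ATG. In both these lists of names, the vehicle-treated mice lay above every ATG-treated mouse.

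**Figure D3:**
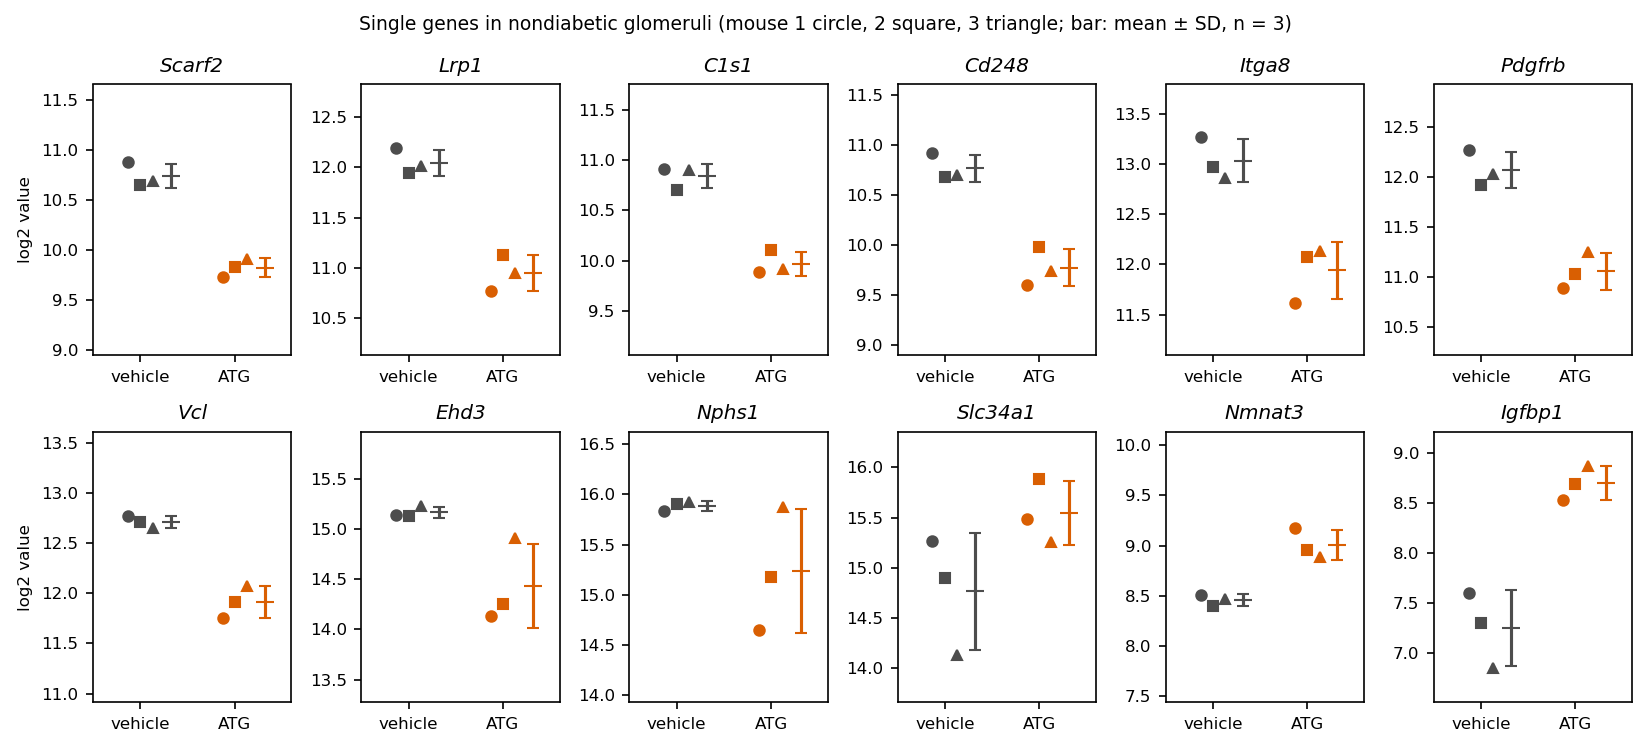
Log2 values (y axis) of 12 genes in the 3 vehicle-treated and 3 ATG-treated nondiabetic mice (x axis), with a symbol per mouse and the mean ± SD beside them. Scarf2, Lrp1, C1s1, Cd248, Itga8, Pdgfrb and Vcl were low in all 3 ATG-treated mice, while Nphs1 reached 15.88 in ATG-treated mouse 3, within the vehicle range.

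Mesangial and contractile genes had the largest share of calls among the marker lists. Of 20 genes, 15 were called lower, 0 higher, and 19 lay lower without overlap between the groups, beside 4.51% and 20.0% of all listed genes. The median log2 fold change was −0.89, beside −0.04 over all genes, and 1 of the 15 lay above 0 on the glomerular scale. Pdgfrb, the receptor through which mesangial cells are recruited to the tuft, was at 12.27, 11.92 and 12.03 with vehicle and at 10.89, 11.03 and 11.26 with ATG (log2 fold change −1.01, standard error 0.13, adjusted p = 0.00548 in limma). Itga8, the integrin alpha 8 gene of mesangial cells, was at 13.27, 12.97 and 12.86 and at 11.62, 12.07 and 12.14. The groups of mice did not overlap in either gene. Serpine2, a protease inhibitor gene, fell by 0.96, the smooth muscle actin gene Acta2 by 1.00, the desmin gene Des by 0.86 and the myosin light chain gene Myl9 by 0.92 on the log2 scale. Gata3, a transcription factor of mesangial cells, was not called (−0.41, adjusted p = 0.129 in limma). Set against the podocyte list within each mouse, the mesangial mean was −1.95, −2.52 and −2.12 with vehicle and −2.20, −2.25 and −2.98 with ATG. That difference between lists overlapped between the groups, and mouse 3 with ATG had the lowest value.

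Endothelial genes were next. Of 30 genes, 13 were called lower and 24 lay lower without overlap, beside 4.51% and 20.0% of all listed genes, with a median of −0.63, and 5 of the 13 lay above 0 on the glomerular scale. Gata5, a transcription factor of glomerular endothelium, was at 10.53, 10.54 and 10.42 with vehicle and at 9.57, 9.47 and 9.96 with ATG. Sox17, another endothelial transcription factor, was at 10.95, 10.69 and 10.88 and at 9.88, 10.04 and 10.26. Rasip1, a regulator of vessel lumen formation, fell by 0.63, and Ehd3, a membrane trafficking gene enriched in glomerular capillaries, by 0.74 on the log2 scale. The endothelial adhesion gene Pecam1 fell by 0.65. Ehd3 and Pecam1 were each called in 1 of the 6 fits that left out a mouse, the fit without ATG-treated mouse 3. The VEGF receptor gene Kdr was at 14.61, 14.54 and 14.54 with vehicle and at 13.63, 13.95 and 14.36 with ATG (−0.58, adjusted p = 0.0562 in limma), and Emcn was at −0.60 (adjusted p = 0.0554 in limma). Neither was called, though the mice of both groups did not overlap. Nos3 itself, an endothelial gene, was at 10.94, 10.82 and 11.26 with vehicle and at 10.07, 10.67 and 10.63 with ATG, and was not called (adjusted p = 0.0649 in limma).

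Podocyte genes were lower by a similar median, −0.60, but with 2 of 35 called (5.71%) and 6 without overlap (17.1%), near the 4.51% and 20.0% of all listed genes. All 35 log2 fold changes were negative, from −1.10 to −0.04. Nphs1 was at 15.83, 15.91 and 15.92 with vehicle and at 14.65, 15.17 and 15.88 with ATG (log2 fold change −0.65, standard error 0.27, adjusted p = 0.138 in limma). Podxl, the podocalyxin gene, was at 17.89, 18.00 and 18.00 with vehicle and at 16.79, 17.26 and 18.05 with ATG. In both genes, ATG-treated mouse 1 was lowest and mouse 3 was at the vehicle level. Synpo (−0.78) and Wt1 (−0.57) were not called either. The 2 called genes were Pla2r1, the phospholipase A2 receptor gene, at 10.87, 10.80 and 10.72 with vehicle and 9.84, 10.08 and 10.24 with ATG, and Trpc6, a cation channel gene, at 7.85, 7.66 and 7.44 and 6.37, 6.65 and 6.61. Unlike Nphs1, both were low in all 3 ATG-treated mice. Without ATG-treated mouse 3, the median over the podocyte list was −0.91, and without ATG-treated mouse 1 it was −0.33.

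Among parietal epithelial genes, 1 of 10 was called lower, Vcam1, and 5 lay lower without overlap, beside 4.51% and 20.0% of all listed genes, with a median of −0.47. Vcam1, an adhesion molecule, was at 9.39, 9.62 and 10.52 with vehicle and at 8.72, 8.82 and 8.87 with ATG, and was called in 1 of the 6 leave-out fits.

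Genes of the matrix and of vessel growth were called at more than the background of 4.51%. Of 31 basement membrane and matrix genes, 14 were called lower and 23 lay lower without overlap, beside 20.0% of all listed genes, with a median of −0.60, and 7 of the 14 lay above 0 on the glomerular scale. Mmp2, a gelatinase gene (chromosome 8, 92827328 to 92853420), was at 10.12, 9.73 and 10.19 with vehicle and at 8.40, 8.98 and 8.84 with ATG (log2 fold change −1.27, standard error 0.16, adjusted p = 0.00465 in limma). Of the type IV collagen genes, Col4a1 (−0.71) and Col4a2 (−0.75) were called, and Col4a3 (−0.50) and Col4a5 (−0.41) were not. The perlecan gene Hspg2 (−0.58), Lamc3 (−0.62) and Nid2 (−0.60) were also called. Ctgf, a matricellular growth factor gene, was called as well (−1.11, adjusted p = 0.0499 in limma), and was at −0.68 without ATG-treated mouse 1. Of 19 VEGF and angiopoietin genes, 5 were called lower, of which 1 lay above 0 on the glomerular scale: the coreceptor genes Nrp1 (−0.77) and Nrp2 (−0.77), Angpt2 (−0.79), Tek (−0.68) and Tie1 (−0.64). The ligand gene Vegfa, made by podocytes, was at −0.50 and was not called. Several of these genes are in the endothelial list too, so the counts are not independent.

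Of 35 adhesion and actin regulators, 7 were called lower, beside 4.51% of all listed genes, with a median of −0.30, and 5 of the 7 lay above 0 on the glomerular scale. Vcl was at 12.77, 12.71 and 12.65 with vehicle and at 11.76, 11.92 and 12.07 with ATG, and the filamin A gene Flna at 14.04, 13.72 and 14.11 and at 12.72, 13.14 and 13.05. Both lay apart in every mouse. The others were Tln1 (talin, −0.44), Zyx (zyxin, −0.46), Actn1 (alpha-actinin 1, −0.54), Myh9 (nonmuscle myosin, −0.51) and Vasp (−0.43). Dbn1, the drebrin gene, was at 10.57, 10.53 and 10.54 with vehicle and at 11.20, 10.73 and 10.21 with ATG, and the groups overlapped.

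Promoters are shown for a few genes, 3 of them called contractile or adhesion genes. RefSeq windows on GRCm38.p6 were found for 11151 of the listed genes and for 487 of the 636 lower genes. Each window holds 300 bases, 250 before and 50 after the start. The CArG box, the element that serum response factor binds, was searched on both strands after the data had been seen. It was in the windows of 16 of these 487 genes (3.29%), of 3 of 77 higher genes (3.90%), of 2 of 16 mesangial and contractile genes (12.5%) of 2 of 25 podocyte genes (8.00%) and of 0 of 34 proximal tubule and 0 of 19 endothelial genes, beside 1.64% of all listed genes and 1.63% of all 32851 windows. An HNF1 element, GTTAATNAT, was in 1 of 77 higher genes and 3 of 487 lower genes, beside 0.628% of all listed genes, and in 0 of 34 proximal tubule genes. An HNF4 element, CAAAGTCCA, was in 2 of 34 proximal tubule genes (5.88%) and in 1 of 19 endothelial genes (5.26%), but in 0 of 77 higher and 2 of 487 lower genes (0.411%), beside 0.52% of all listed genes. Over all windows of this length the shares were 0.801% and 0.475%. The 250 bases before the start of Vcl (chr14:20929148-20929397, plus strand), Fhl2 (chr1:43163962-43164211, minus strand), Myl9 (chr2:156775214-156775463, plus strand), Igfbp1 (chr11:7197537-7197786, plus strand) and Slc3a1 (chr17:85028097-85028346, plus strand) follow, 5′ to 3′ on the gene's strand. Capitals mark a CArG box in the first 3, the HNF1 element in Igfbp1, the called higher gene with the largest log2 fold change, and the HNF4 element in Slc3a1, a proximal tubule amino acid transporter gene. A match is a run of letters and no evidence of binding.
Vcl: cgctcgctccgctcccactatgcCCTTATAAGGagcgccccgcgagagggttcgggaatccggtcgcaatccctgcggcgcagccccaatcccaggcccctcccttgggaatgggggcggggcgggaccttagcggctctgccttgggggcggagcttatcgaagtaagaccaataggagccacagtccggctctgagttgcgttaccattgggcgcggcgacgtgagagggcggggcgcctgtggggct
Fhl2: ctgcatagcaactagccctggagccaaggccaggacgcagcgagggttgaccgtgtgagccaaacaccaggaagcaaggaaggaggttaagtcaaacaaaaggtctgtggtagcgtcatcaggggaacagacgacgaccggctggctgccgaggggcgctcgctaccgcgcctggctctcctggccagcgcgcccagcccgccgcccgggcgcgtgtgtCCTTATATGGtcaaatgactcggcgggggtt
Myl9: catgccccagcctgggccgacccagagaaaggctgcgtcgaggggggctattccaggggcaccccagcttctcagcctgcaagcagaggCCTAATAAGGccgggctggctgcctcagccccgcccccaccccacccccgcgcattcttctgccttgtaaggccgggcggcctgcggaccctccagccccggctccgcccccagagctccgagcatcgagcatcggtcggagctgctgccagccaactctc
Igfbp1: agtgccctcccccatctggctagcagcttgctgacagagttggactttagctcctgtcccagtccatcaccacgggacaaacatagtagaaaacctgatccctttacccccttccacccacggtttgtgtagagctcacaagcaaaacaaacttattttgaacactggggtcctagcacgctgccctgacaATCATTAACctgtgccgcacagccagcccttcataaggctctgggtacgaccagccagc
Slc3a1: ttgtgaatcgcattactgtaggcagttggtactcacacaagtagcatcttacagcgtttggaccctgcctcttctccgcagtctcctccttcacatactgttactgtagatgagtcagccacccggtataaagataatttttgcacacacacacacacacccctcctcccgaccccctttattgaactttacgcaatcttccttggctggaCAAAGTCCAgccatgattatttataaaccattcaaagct

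The called higher genes were fewer. Igfbp1, which encodes an insulin-like growth factor binding protein (chromosome 11, 7197787 to 7202546), was at 7.60, 7.30 and 6.85 with vehicle and at 8.53, 8.69 and 8.87 with ATG. It rose to 272% of vehicle (log2 fold change 1.44, standard error 0.26, adjusted p = 0.0151 in limma) on 107 to 418 reads. Nmnat3, an enzyme of mitochondrial NAD synthesis, was at 8.51, 8.40 and 8.46 and at 9.17, 8.96 and 8.89. Reps2, an endocytosis adaptor gene, was at 9.99, 10.03 and 9.82 and at 10.59, 10.56 and 10.32. Every ATG-treated mouse lay above every vehicle-treated mouse for these 3 genes, which the rule that chose them required. The other 7 of the 10 with the lowest p were Fam134b, a receptor for autophagy of the endoplasmic reticulum (0.45), Ipp (0.58), Mospd1 (0.46), Poc1a, a centriole protein gene (0.67), Asb9 (0.87), Tmlhe, an enzyme of carnitine synthesis (0.38), and Hacd2, an enzyme of fatty acid elongation (0.40). The 10 higher genes were called in 1 to 5 of the 6 fits with a mouse left out, and all 10 in the fit without ATG-treated mouse 3.

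The marker genes of the tubules were nearly all at positive log2 fold changes. None was called, beside 0.709% of all listed genes called higher and 4.51% called lower. Of 42 proximal tubule genes 41 were positive, with a median of 0.80, and 26 lay higher without overlap, beside 14.4% of all listed genes. Hao2, a peroxisomal oxidase gene of the proximal tubule, was at 9.99, 9.85 and 9.34 with vehicle and at 10.48, 11.64 and 10.54 with ATG, and had the lowest adjusted p of the list (0.0741 in limma). Slc6a19, a neutral amino acid transporter gene, was at 11.23, 10.73 and 10.04 and at 12.22, 12.15 and 11.36 (log2 fold change 1.24, standard error 0.39). Slc34a1, the phosphate transporter gene, was at 15.27, 14.90 and 14.13 and at 15.49, 15.88 and 15.26, so the groups overlapped by 1 mouse. For Slc6a19 and Slc34a1 the vehicle-treated mice themselves differed by more than 1 log2 unit. The median was 0.43 for 11 thick ascending limb genes, 0.57 for 10 distal convoluted and connecting tubule genes and 0.40 for 15 collecting duct genes. Without ATG-treated mouse 1 the first was 0.11 and the second 0.33, and without ATG-treated mouse 3 the first was 0.67 and the last 0.64. Umod was at 17.07, 16.91 and 16.91 and at 18.13, 17.46 and 16.95, and Slc12a3, the thiazide-sensitive transporter gene, at 16.35, 16.75 and 16.56 and at 17.69, 17.06 and 16.49. ATG-treated mouse 3 lay within the vehicle range for both, and mouse 1 was highest.

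Metabolic genes that tubules use lay on the same side. All 34 genes of fatty acid oxidation and ketone metabolism were positive, with a median of 0.44, and 26 lay higher without overlap, beside 14.4% of all listed genes. Etfdh, which feeds electrons from fatty acid oxidation into the respiratory chain (0.46), and Acot2, a mitochondrial thioesterase gene (0.38), were called. Of 82 oxidative phosphorylation genes, 80 were positive with a median of 0.39, and 74 lay higher without overlap, but none was called higher. The single call was Ndufa4l2, lower by −0.75. Of 41 genes of xenobiotic metabolism, 38 were positive with a median of 0.69, 1 was called higher, Cyp2c44 (0.56), and 2 lower, Cyp1b1 (−0.76) and Ephx1 (−0.47), beside 0.709% higher and 4.51% lower of all listed genes. Ephx1 was at 0.19 with libraries scaled on the glomerular lists. Of the genes in these 3 lists, 27, 78 and 26 followed the tubule marker mean with a correlation of at least 0.8 across the 6 diabetic mice, within treatment groups. The tubule signal, higher in the ATG-treated mice, moved with these lists, and its part in them was not tested gene by gene.

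That relation in the diabetic mice, which also enter the fits above, divided the listed genes. With their group means removed, 2930 genes correlated with the tubule marker mean at 0.8 or above, 2177 at −0.8 or below and 8989 with neither. The tubule genes following it numbered 65 of 78, in part because they make up the mean, and the glomerular list genes opposing it 29 of 85, of which 25 were podocyte genes. Of the 100 higher genes, 46 were among the followers, 1 among the opposing genes and 53 among neither. Of the 636 lower genes, 26, 79 and 531 were. Called higher were 1.57% of the followers, 0.046% of the opposing genes and 0.590% of those with neither relation, beside 0.709% of all listed genes. Called lower were 0.887%, 3.63% and 5.91%, beside 4.51%.

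To set the tubule signal apart, the mean of the 78 tubule genes was entered as a covariate. In the 6 diabetic mice, which share its slope, this mean was 10.75, 11.13 and 9.86 with vehicle and 10.95, 11.03 and 10.56 with ATG. All 6 lay below the 11.56 to 12.68 of the nondiabetic mice. Of all listed genes 54 were then called, 0 higher and 54 lower (0.383%), all of them among the 636, and 1917 had an unadjusted p under 0.05. With only the 6 nondiabetic mice none passed in limma, although 442 had an unadjusted p under 0.05. None passed either with the number at the end of the label as a block. The sign of the log2 fold change stayed for all 636 lower genes, with a median of −0.55, and for all 100 higher genes, with a median of 0.31. The covariate differs between the treatments, so its effect and that of ATG cannot be fully told apart. Scarf2 was at −0.93 (adjusted p = 0.00884 in limma), Lrp1 at −1.12, C1s1 at −0.90 and Cd248 at −1.04, close to their values without it. P3h3, a collagen-modifying enzyme gene, was at −0.83, Bgn at −1.06, Col8a1 of type VIII collagen at −1.12 and Adamts10 at −0.71. Among the lists, 4 of 31 matrix genes (Mmp2, Col6a3, Nid1 and Col4a2), 2 of 20 mesangial genes (Pdgfrb and Serpine2), 2 of 35 adhesion and actin genes (Vcl and Flna) and 1 of 35 podocyte genes (Pla2r1) were called. The mesangial list went from 15 calls to these 2, the endothelial list from 13 to 0, the VEGF and angiopoietin list from 5 to 0 and the interferon-stimulated list from 4 to 0, while all calls went from 736 to 54. In the diabetic mice Pla2r1 correlated with the tubule marker mean at −0.61, while 25 of the 35 podocyte genes did at −0.8 or below. With the covariate, Nphs1 was at −0.26, Podxl at −0.18 and Wt1 at −0.07, and none of them was called. Of genes with a positive log2 fold change in this fit, the lowest adjusted p was 0.0715 in limma, for Reps2 (0.50) and for Megf9, which was not among the 100 and was at 0.02 without the covariate and 0.35 with it. The number called fell to 0 without vehicle-treated mouse 1 and to 19 without vehicle-treated mouse 3, and rose to 837, 102 of them higher, without ATG-treated mouse 3.

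The medians of the lists moved by different amounts with the covariate. The podocyte median went from −0.60 to −0.19, the endothelial from −0.63 to −0.48, the mesangial from −0.89 to −0.84 and the matrix median from −0.60 to −0.55. That of the VEGF and angiopoietin list went from −0.59 to −0.44 and that of the interferon-stimulated list from −0.57 to −0.45. The proximal tubule median went from 0.80 to 0.09, which follows by construction since these 42 genes are among the 78 of the covariate. That of oxidative phosphorylation from 0.39 to 0.09 and that of fatty acid oxidation from 0.44 to 0.17. With libraries scaled on the glomerular lists, the podocyte median was 0.06, the endothelial 0.04 and the mesangial −0.22, which the scaling itself sets to balance near 0.

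**Figure D4:**
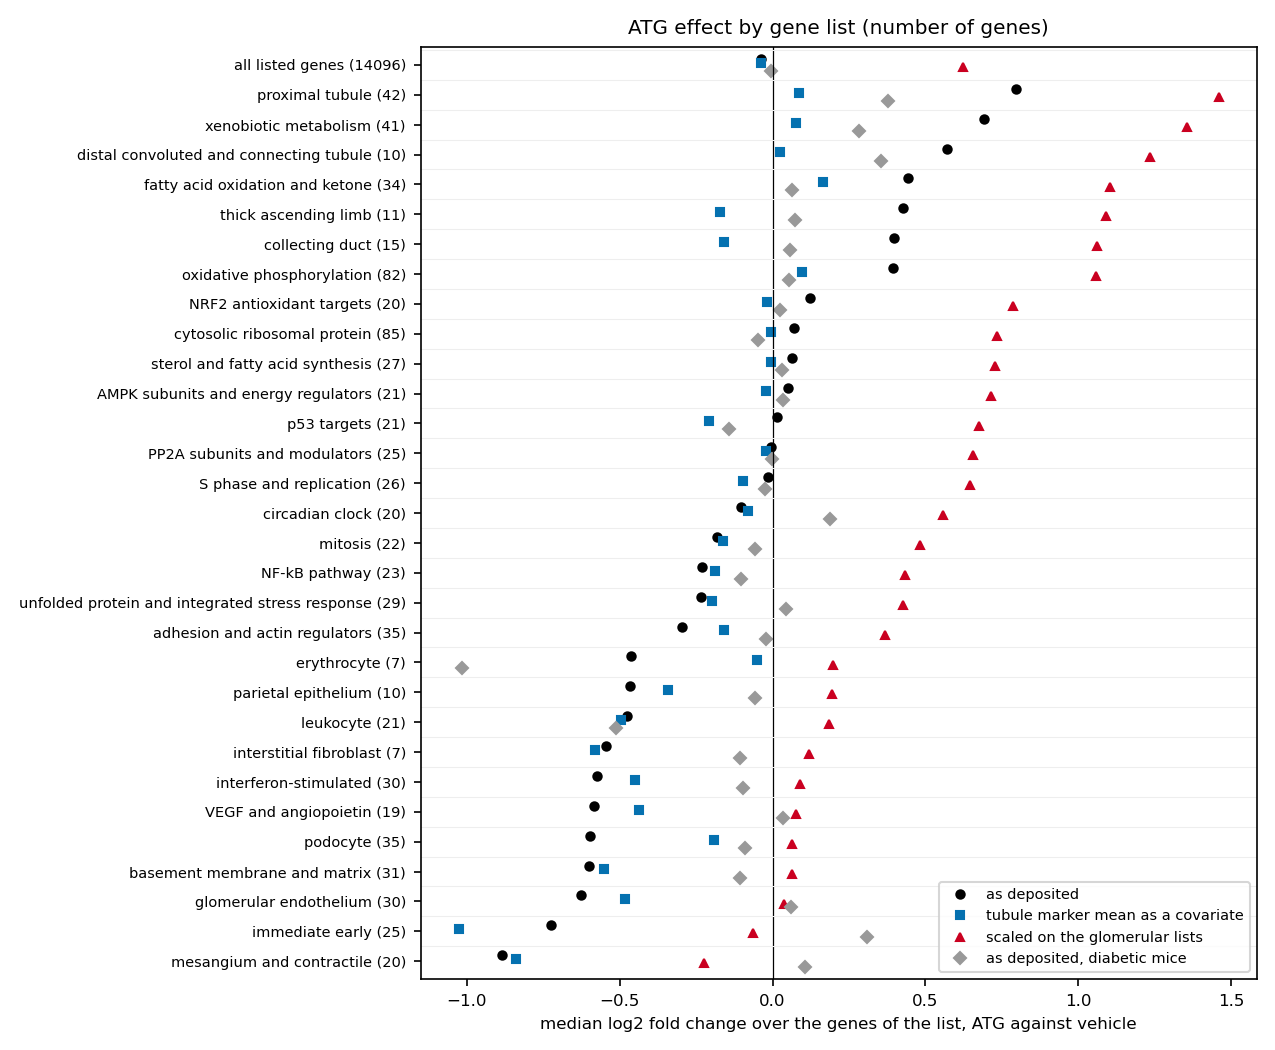
Median log2 fold change with ATG (x axis) over the genes of each list (y axis, number of genes in brackets), as deposited in nondiabetic mice, with the tubule mean entered as a covariate, with libraries scaled on the glomerular lists, and as deposited in diabetic mice. The mesangial median stays at −0.84 with the covariate and the podocyte median comes to −0.19.

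The 14 genes called lower with libraries scaled on the glomerular lists were Steap4, Sfrp2, Rab3c, P2rx1, Gucy1a2, Adamts5, Mmp2, Trpc4, Itga8, Sost, Lrp1, Ccdc184, Islr and Nkain4. They were named after their values had been seen, and all were also called lower as deposited. Steap4, a metalloreductase gene, was at −0.68 on this scale (standard error 0.16, adjusted p = 0.0149 in limma) and at −1.34 as deposited. Sfrp2, a secreted modulator of Wnt signalling, was at −0.62, Gucy1a2, a subunit of the nitric oxide receptor guanylate cyclase, at −0.46, and the cation channel gene Trpc4 at −0.52. Lrp1 was at −0.44 and Itga8 at −0.43. Steap4, P2rx1, Adamts5, Mmp2 and Lrp1 were the 5 that were also called with the tubule covariate. With the podocyte list as the scale, the 14 stood between −1.29 and −0.51, and none passed.

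The leukocyte, erythrocyte and interstitial fibroblast lists held 0 called genes. Of 21 leukocyte genes, 20 were negative with a median of −0.48, and 7 (33.3%) lay lower without overlap, beside 20.0% of all listed genes. The pan-leukocyte gene Ptprc was at 9.32, 9.04 and 9.43 with vehicle and at 9.01, 8.80 and 9.04 with ATG. The erythrocyte list had a median of −0.46 over 7 genes, on 2 of which, Hbb-b2 and Hbb-bt, the deposited values were identical, and the interstitial fibroblast list one of −0.54 over 7 genes. In each of these lists 4 of 7 genes (57.1%) lay lower without overlap. The fibroblast mean was 10.10, 9.75 and 9.85 with vehicle and 9.40, 9.35 and 9.51 with ATG, lower without overlap as the mesangial mean was, and its part in the mesangial and matrix calls was not tested. Of 30 interferon-stimulated genes 4 were called lower (Oasl2 −0.93, Oas1a −0.80, Usp18 −0.75 and Rtp4 −0.83), or 13.3% beside 4.51% of all listed genes, with a median of −0.57. Oasl2 was at 9.38, 9.71 and 9.90 with vehicle and at 8.47, 8.74 and 9.01 with ATG. Oasl2 and Usp18 were called in 1 and Oas1a in 2 of the 6 leave-out fits. Of 23 genes of the NF-kB pathway 3 (13.0%) were called lower, with a median of −0.23, and 2 of the 3 lay above 0 on the glomerular scale. Nfkb1, a subunit gene, was at 11.30, 11.30 and 11.35 with vehicle and at 10.85, 10.88 and 11.15 with ATG, and its value with libraries scaled on the glomerular lists was 0.30. Csf1, a macrophage growth factor gene, fell by 0.90 and the antiapoptotic gene Birc3 by 0.47 on the log2 scale, and Birc3 was at 0.19 on the glomerular scale. Nfkb1 and Birc3 were called in 1 and Csf1 in 2 of the 6 leave-out fits. Rela was not called (−0.20, adjusted p = 0.0625 in limma).

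PP2A is a serine and threonine phosphatase that the study examines as the target of ATG. Of 25 genes of its subunits and modulators, 0 were called, with a median of −0.01 and 2 genes higher (8.00%) and 6 lower (24.0%) without overlap, beside 14.4% and 20.0% of all listed genes. The scaffold gene Ppp2r1a was at 12.84, 12.80 and 12.82 with vehicle and at 12.84, 12.78 and 12.80 with ATG, a log2 fold change of −0.02 with a standard error of 0.05. The catalytic subunit gene Ppp2ca was at 12.61, 12.62 and 12.54 and at 12.62, 12.56 and 12.66, a log2 fold change of 0.03 with a standard error of 0.06. Both are levels of mRNA as deposited and say nothing of the enzyme's activity.

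The mean of the immediate early genes was 11.68, 11.24 and 11.49 with vehicle and 9.90, 11.60 and 10.83 with ATG, lowest in ATG-treated mouse 1, and 2 of 25 (8.00%) were called lower, Klf4 (−0.96) and Ctgf (−1.11), beside 4.51% of all listed genes lower and 0.709% higher. Each was called in 2 of the 6 leave-out fits. Klf4, a transcription factor gene, was at 11.96, 11.61 and 11.76 with vehicle and at 10.21, 11.29 and 10.97 with ATG. Lists for the cell cycle, stress and lipid synthesis held at most 1 called gene each. Of 22 mitosis genes 0 were called (median −0.18). Of 21 p53 targets 1 was called, Phlda3 (−0.57, median 0.01, and 0.09 for Phlda3 on the glomerular scale), and of 27 sterol and fatty acid synthesis genes 1, Idi1 (0.38, median 0.06). Of 21 AMPK subunit and energy genes 1 was called, Prkab2 (−0.61, median 0.05). The lists for the unfolded protein response (29 genes, median −0.23), NRF2 targets (20 genes, median 0.12) and cytosolic ribosomal proteins (85 genes, median 0.07) had 0 calls. Nqo1, an NRF2 target, was at 9.47, 9.31 and 9.24 with vehicle and at 10.45, 10.19 and 9.79 with ATG, without overlap (adjusted p = 0.0912 in limma).

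In diabetic mice the same treatment was followed by no called gene (lowest adjusted p = 0.248 in limma, with 636 genes at an unadjusted p under 0.05). The 2 comparisons use different mice, whose labels start with different digits. The tubule marker mean of every diabetic mouse lay below that of every nondiabetic mouse. The 636 genes called lower in nondiabetic mice had a median of −0.01 there, with 311 positive and 325 negative, beside 6793 positive and 7299 negative over all genes. The 100 higher genes had a median of 0.06, with 78 positive. Tested directly, the difference between the ATG effects was called for 77 genes, 76 lower in nondiabetic than in diabetic mice (0.539% of genes) and 1 higher, and 72 of these were among the 636. The difference contains the same nondiabetic effect that called the 636, so that overlap is no further test. Coro2a, an actin-binding coronin gene, had log2 fold changes of −0.75 in nondiabetic and 0.70 in diabetic mice, a difference of −1.46 (standard error 0.16, adjusted p = 0.00683 in limma). Dock10 was at −0.88 and 0.31, Pla2g4a, the cytosolic phospholipase A2 gene, at −0.50 and 0.35, and Lrp1 at −1.10 and 0.10. For Itga8 the values were −1.09 and 0.25, and for Pdgfrb −1.01 and 0.02, and both differences passed. For Nphs1 they were −0.65 and −0.14, for Slc34a1 0.78 and 0.42, and neither difference passed. Lppos, an antisense transcript of Lpp, was the 1 gene with a higher effect in nondiabetic mice, at 0.41 and −0.43. Whether the counting used strand is not given in the sources used here, so its reads and those of Lpp cannot be told apart. With any 1 of the 12 mice left out, the number called ranged from 6 to 770, and it was 6 without vehicle-treated nondiabetic mouse 3 or ATG-treated diabetic mouse 3 and 770 without ATG-treated nondiabetic mouse 3.

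**Figure D5:**
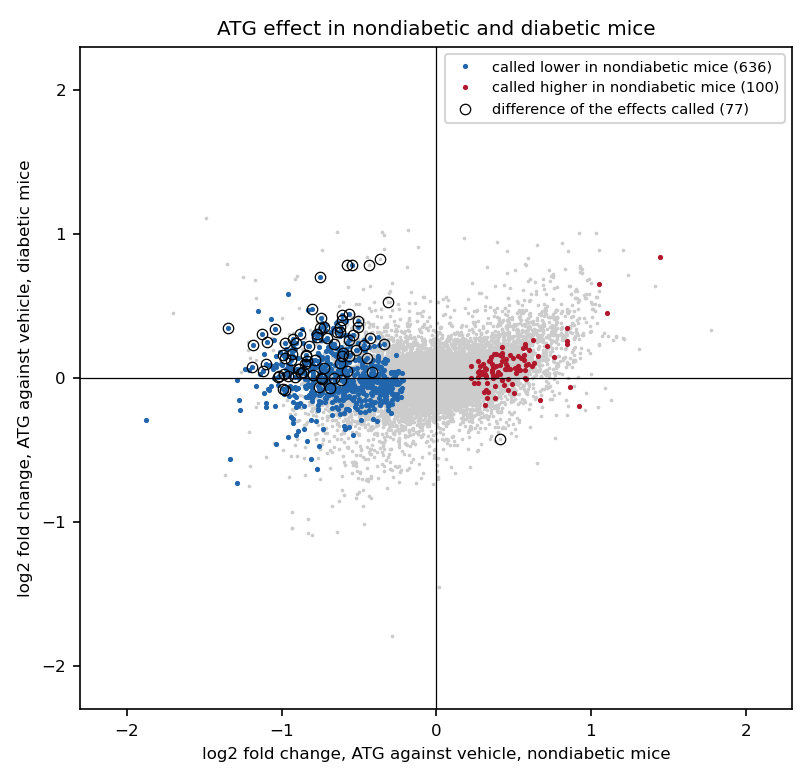
Log2 fold change with ATG in nondiabetic mice (x axis) and in diabetic mice (y axis), 1 point per gene, with the genes called in nondiabetic mice coloured and the 77 genes whose effects differed circled. The genes called lower spread about 0 in diabetic mice, with a median of −0.01, and the called higher genes had a median of 0.06.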

How the data were processed

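Glomerular mRNA of 12 mice, 3 in each of 4 groups, had been sequenced after poly-A selection. For each mouse the authors deposited log2 values by gene. Their processing notes name mm10 and limma, and the aligner and counter are not given in the sources used here. The linear values are reads times 1 factor per library, found by testing low values for whole multiples, and are not divided by gene length. Start positions in the tables count from 0 and were raised by 1.

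The log2 values were fitted in limma 3.58.1 (R 4.3.3) with a mean-variance trend, all 12 mice in 1 model of 4 groups, and p-values were adjusted over all 14096 listed genes by the Benjamini-Hochberg method, with a call at an adjusted p under 0.05. A second fit added the mean of 78 tubule marker genes as a covariate, and another contrast took the difference between the ATG effects in nondiabetic and diabetic mice. Nothing in the sources says how the mice of a group were spread over cages or preparation days, so p-values measure the spread between these samples. The members and gene lists were chosen with earlier results of these data known. Genes were named as the 10 of lowest p in each direction without overlap, the 8 of lowest p with the covariate, the 3 of lowest p in each list, the 3 of lowest p for the difference, and a fixed set of markers. Other list members given by name were chosen after their values had been seen. The scripts were tested on simulated data. Figures were drawn with Python 3.11.15 and matplotlib 3.10.9. Alternatives were other scalings, covariates and filters, limma-voom on recovered reads, a label number block and leaving out each mouse. The block took the number at the end of the label, with the unnumbered mice as a level of their own. Some items are not reported here.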

Additional observations from a re-analysis of the deposited data

Results flagged for a closer look

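The effect of ATG differed between nondiabetic and diabetic mice for 77 genes, by limma's test of the difference itself. The 3 of lowest p with a lower effect in nondiabetic mice were Coro2a, with a difference of −1.46 in log2 fold change, Dock10 with −1.19 and Pla2g4a with −0.86. Lppos was the 1 gene with a higher effect in nondiabetic mice, a difference of 0.84. The tubule marker mean was higher with ATG in nondiabetic mice. With it as a covariate 38 genes passed, 38 with a lower and 0 with a higher effect in nondiabetic mice. What part of each single value the tubule signal makes up was not tested.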

How the results depend on the processing

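The number of genes called for ATG in nondiabetic mice, 736, was 0 with only the 6 nondiabetic mice, 60 to 3531 with 1 mouse left out, 8 without both unnumbered mice, 10132 with scaling on the glomerular lists, 0 with scaling on the podocyte list (chosen after seeing the data), 2145 at an adjusted p under 0.1 and 46 at a log2 fold change of at least 1. With the tubule covariate, the 54 became 0 with only the 6 mice, 0 with a label number block, 0 to 837 with 1 mouse left out, 5 without both unnumbered mice, 28 with median-ratio scaling and 417 with the distal nephron lists as the covariate. The 77 for the difference became 8 with a label number block, 6 to 770 with 1 mouse left out, 19 without a mean-variance trend and 38 with the covariate. The causes were not tested. Whether the label numbers pair the mice cannot be decided from groups of 3. Correlations of deviations were 0.10, −0.05 and 0.25, and not every mouse correlated best with its own number. The label number block gave 231 higher and 715 lower genes for ATG in nondiabetic mice.

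List medians with scaling on the glomerular and on the podocyte lists were 0.065 and −0.011 for podocyte (−0.19 with the covariate), 0.037 and −0.039 for endothelium, −0.22 and −0.30 for mesangium, 1.46 and 1.38 for proximal tubule, 1.09 and 1.01 for thick ascending limb (0.11 to 0.67 with 1 mouse left out), 1.23 and 1.16 for distal convoluted and connecting tubule, and 1.06 and 0.99 for collecting duct. These scales add a constant to every gene, so 346 and 267 of the 636 called lower genes turned positive. Of the 63 called genes chosen by the naming rule, 6 did so under both: Birc3 (0.19 and 0.11), Ephx1 (0.19 and 0.11), Nfkb1 (0.30 and 0.23), Phlda3 (0.090 and 0.014), Pla2g4a (0.16 and 0.082) and Vasp (0.23 and 0.15). Pecam1 (0.0176), Prkab2 (0.0564) and Rasip1 (0.0365) did so on the glomerular scale alone. Other called list members, Tln1, Zyx, Actn1, Myh9, Tie1, Hspg2, Lamc3 and Nid2 among them, lie above 0 on the glomerular scale as well. Of these 63 genes, 63 lost the call with only the 6 mice, 55 without both unnumbered mice, 7 with the block, 10 with median-ratio scaling, 7 with limma-voom, 25 to 40 with a mouse other than ATG-treated mouse 3 left out and 0 without that mouse, and 22 were called in all 6 of the leave-out fits.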
